A study of Mus musculus with 15 samples.

Results

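The proteasome genes of mouse CD8 T cells were described across 5 sorted populations. They were taken from an RNA-seq table of 23284 gene symbols by name, as the genes of the proteasome core particle (Psma and Psmb), its regulatory particle (Psmc and Psmd), its activator caps (Psme) and its assembly chaperones (Psmg1 to Psmg4 and Pomp), where 1 of the populations or more had a mean FPKM of 1 or above. This gave 46 members out of 48 matching symbols. Psmb8, Psmb9, Psmb10, Psme1 and Psme2, the immunoproteasome genes, were contrasted with the other 41. All cells came from OT-I mice, whose CD8 T cells bear a transgenic receptor that sees the ovalbumin peptide SIINFEKL on H-2Kb. Cultures were begun with bone marrow dendritic cells carrying that peptide and ran for 14 days. The sorted populations were cocktail CD44loCD62L+, cocktail CD44+CD62L+ and cocktail CD44+CD62L- cells, all grown with IL-7, IL-21, 2-deoxyglucose, which blocks glycolysis, and TWS119, an inhibitor of glycogen synthase kinase, and IL-2 CD44+CD62L- cells, grown with IL-2. The fifth population was naive OT-I cells of day 0, uncultured, whose gate is CD44loCD62L+ in the labels but CD44-CD62L+ in the design description. Each population had 3 libraries, 15 in all, described as technical replicates, so p-values measured only the spread between libraries and not between mice or cultures. CD44 is an adhesion receptor raised on antigen-experienced T cells and CD62L a lymph node homing receptor.

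The proteasome degrades proteins marked with ubiquitin. Its core is a barrel with outer alpha rings, which gate entry, and inner beta rings, in which Psmb5, Psmb6 and Psmb7 encode the catalytic subunits. In lymphoid cells and under interferon gamma, newly built cores take up Psmb8 in place of Psmb5, Psmb9 in place of Psmb6 and Psmb10 in place of Psmb7, and this immunoproteasome is known for making peptides for MHC class I. The regulatory particle recognises, unfolds and feeds substrates through a base with ATPases (Psmc genes) and a lid (Psmd genes). Psme1 and Psme2 together form an interferon-induced cap that opens the core without ATP, Psme3 forms a related nuclear cap, and Psme4 encodes a large cap of its own.

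Values were FPKM, fragments per kilobase of transcript scaled to the mapped fragments of a library, so levels can be set side by side between genes per length, within the limits of the estimate. Sequencing depth is unknown, as no counts came with them, and the number of libraries limits the precision. Sums of FPKM ran from 669341 to 781949 per library, 10006 to 10473 genes reached 1 FPKM, and the median coefficient of variation of the members within a population was 1.27% to 1.58%. The summed level of the 8 T cell markers in the table was 2887 to 2891 FPKM in cocktail CD44loCD62L+, 2614 to 2619 in cocktail CD44+CD62L+, 2813 to 2821 in cocktail CD44+CD62L-, 2307 to 2330 in IL-2 and 3895 to 3908 in naive libraries, and Cd8a was at 218 FPKM or more in every population mean. The summed level of the 5 B cell markers stayed at or below 6.75 FPKM in cultured and reached 39.0 to 40.4 FPKM in naive libraries. For the 4 erythroid and neutrophil markers it was at or below 4.98 FPKM in cultured and 24.3 to 28.3 FPKM in naive libraries. In bulk samples such as these, fewer cells of a type and less RNA per cell cannot be told apart.

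Upstream sequences of 4 catalytic subunit genes are shown here because these genes carry the main contrast of the results below: Psmb8 and Psmb9, which were higher in every cultured population than in naive cells, and their constitutive counterparts Psmb5 and Psmb6. Each is the 250 bases before the transcription start, taken from RefSeq on GRCm38.p6 and written 5′ to 3′ on the strand of the gene. The RefSeq starts of Psmb8 and Psmb9 lie inside the GENCODE spans of these genes given below, so that their windows fall within those spans, and that of Psmb5 falls within its span in part. Capitals mark a match to TTCNNNGAA, the core of a STAT binding site, in Psmb8 and to TGACNNNGC, the core of the antioxidant response element read by Nfe2l1 and Nfe2l2, in Psmb5 and Psmb6. Psmb9 held no match to the motifs searched.
Psmb8, chr17:34197945-34198194, plus strand: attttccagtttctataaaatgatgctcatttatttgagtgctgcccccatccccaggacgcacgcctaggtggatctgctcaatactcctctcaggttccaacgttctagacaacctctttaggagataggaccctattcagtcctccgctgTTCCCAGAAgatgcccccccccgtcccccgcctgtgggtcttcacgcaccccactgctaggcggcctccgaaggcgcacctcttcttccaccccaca
Psmb9, chr17:34187331-34187580, minus strand: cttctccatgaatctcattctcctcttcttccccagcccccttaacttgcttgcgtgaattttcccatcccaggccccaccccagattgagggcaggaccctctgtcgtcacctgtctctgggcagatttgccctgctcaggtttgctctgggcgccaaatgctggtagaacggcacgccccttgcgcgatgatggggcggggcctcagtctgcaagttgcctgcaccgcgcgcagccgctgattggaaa
Psmb5, chr14:54617996-54618245, minus strand: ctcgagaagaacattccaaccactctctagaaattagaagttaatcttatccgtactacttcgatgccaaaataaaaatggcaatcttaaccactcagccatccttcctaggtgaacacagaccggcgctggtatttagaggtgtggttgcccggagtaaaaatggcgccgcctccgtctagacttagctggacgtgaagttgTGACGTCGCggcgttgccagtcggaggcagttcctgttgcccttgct
Psmb6, chr11:70525107-70525356, plus strand: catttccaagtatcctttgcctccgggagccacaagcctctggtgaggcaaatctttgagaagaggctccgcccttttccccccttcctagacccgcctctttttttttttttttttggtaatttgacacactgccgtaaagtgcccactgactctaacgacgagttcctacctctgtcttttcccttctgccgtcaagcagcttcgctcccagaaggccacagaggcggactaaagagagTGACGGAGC

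The motifs were searched on both strands in 300-base windows, from 250 bases before to 50 after each start, of 27025 genes, and 39 of the 46 members had a window. TTCNNNGAA was found for 9.55% of all genes and 3 of the 39 members, with Psmb8 the sole one of the 5 immunoproteasome genes. TGACNNNGC was found for 14.0% of all genes and for 6 members, none of them among the 5. GAAANNGAA, the core of the interferon-stimulated response element, was found for 9.76% of all genes and for 8 members, of which Psme1 was the one immunoproteasome gene. This last motif can share its GAA with TTCNNNGAA, and each was counted on its own. The match of Psme1 lay on the opposite strand just after the start and is shown in capitals within the 30 bases around it.
Psme1, chr14:55578494-55578523, plus strand: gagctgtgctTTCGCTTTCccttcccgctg

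The windows of Psmb9 and Tap1, a peptide transporter gene, overlapped by 275 bases, with starts 226 bases apart on opposite strands, so both genes share an upstream region. These matches describe letters and not bound sites. Psmb9 (chromosome 17, 34181987 to 34187764 of GRCm38, minus strand) also overlaps Tap1 in the GENCODE M21 annotation, as do Psmb7 with Nek6 and Psmd13 with Sirt3. Whether the authors used strand is not given in the sources used here, so reads from such pairs cannot be told apart. Tap1 reached a mean of 295 FPKM, Sirt3 18.0 and Nek6 12.5. Psmb5, Psmb6 and Psmb7 have processed pseudogenes in the same annotation, with which reads could be split.

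As a group, the members were highest in IL-2 cells, while the immunoproteasome genes were highest in the cocktail cells. The summed level of the 41 other members was 3491 FPKM in cocktail CD44loCD62L+, 4088 in cocktail CD44+CD62L+, 4217 in cocktail CD44+CD62L-, 5939 in IL-2 and 3062 in naive cells (SD 10.4, 16.7, 15.5, 23.4 and 10.5, n = 3 each). The summed level of the 5 immunoproteasome genes was 2024, 2150 and 2178 FPKM in the same cocktail populations, 1657 in IL-2 and 1594 in naive cells (SD 5.75, 9.29, 11.4, 11.7 and 5.53). They thus held 36.7%, 34.5% and 34.1% of the summed FPKM of all members in those cocktail populations, 21.8% in IL-2 and 34.2% in naive cells. Of the 46 members, 39 had their highest mean in IL-2 cells, and naive cells had the lowest mean for 28, cocktail CD44loCD62L+ cells for 13, IL-2 cells for 4 and cocktail CD44+CD62L+ cells for 1. Between its highest and its lowest population, a member differed 1.94-fold in the median, with a range of 1.11-fold for Psme2 to 3.02-fold for Psmd13, a lid subunit gene. Levels also differed between members, with Psmd9, a chaperone gene of the regulatory particle base, lowest in every population (7.50 to 12.8 FPKM in the means). It stood well above the filter, under which lay Psma8, an alpha subunit gene known from testis, and Psmb11, the thymoproteasome subunit gene, with means of at most 0.184 and 0.0738 FPKM.

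**Figure D1:**
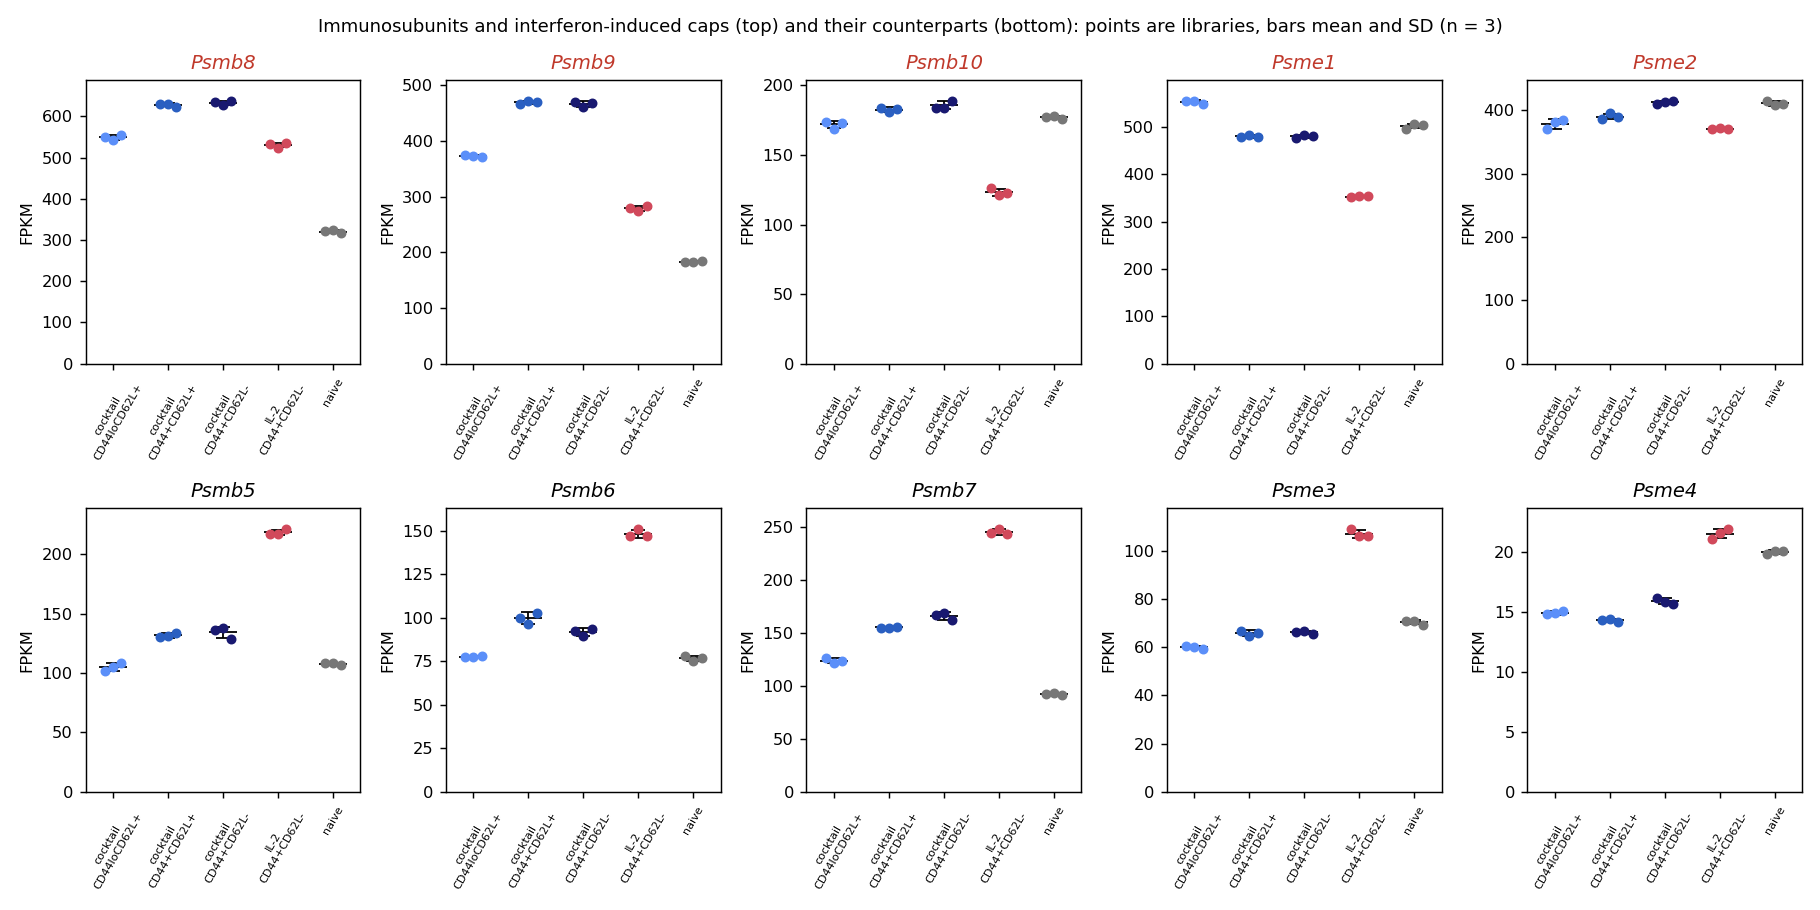
FPKM of the immunoproteasome genes (top row) and of counterparts with constitutive roles (bottom row) in each of the 15 libraries, with axes from 0. Points are libraries and bars the mean and SD of 3. Psmb8 and Psmb9 are highest in the 2 cocktail CD44+ populations, while Psmb5, Psmb6, Psmb7 and Psme3 are highest in IL-2 cells.

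Among the catalytic subunits, Psmb9 and Psmb8 were raised in all cultured cells and most in the cocktail, and Psmb10 was lowest in IL-2 cells. Psmb9 had 374, 372 and 371 FPKM in the cocktail CD44loCD62L+ libraries, 467, 472 and 469 in cocktail CD44+CD62L+, 470, 461 and 468 in cocktail CD44+CD62L-, 279, 274 and 283 in IL-2 and 182, 183 and 184 in naive libraries. The naive libraries were lowest and the cocktail CD44+ libraries highest, and the groups overlapped only between the cocktail CD44+CD62L+ and CD44+CD62L- populations. For Psmb8 (chromosome 17, 34197721 to 34201454), the values were 551, 542 and 554 FPKM in the cocktail CD44loCD62L+ libraries, 631, 631 and 624 in cocktail CD44+CD62L+, 634, 628 and 638 in cocktail CD44+CD62L-, 533, 524 and 535 in IL-2 and 321, 324 and 316 in naive libraries. Here too naive libraries were lowest, the CD44+ cocktail populations overlapped at the top, and the cocktail CD44loCD62L+ libraries lay above those of IL-2. Psmb10 (chromosome 8, 105935735 to 105938444) was at 174, 169 and 173 FPKM in the cocktail CD44loCD62L+ libraries, 184, 181 and 183 in cocktail CD44+CD62L+, 184, 184 and 189 in cocktail CD44+CD62L-, 126, 121 and 123 in IL-2 and 177, 178 and 176 in naive libraries. The 3 IL-2 libraries were below all others, which lay close together.

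The constitutive counterparts were highest in IL-2 libraries, far above the rest. Psmb5 (chromosome 14, 54614119 to 54618022), the chymotrypsin-like subunit gene, was at 102, 105 and 108 FPKM in the cocktail CD44loCD62L+ libraries, 130, 131 and 134 in cocktail CD44+CD62L+, 136, 138 and 129 in cocktail CD44+CD62L-, 217, 217 and 221 in IL-2 and 108, 108 and 107 in naive libraries. The cocktail CD44+ populations overlapped in the middle, and the cocktail CD44loCD62L+ and naive libraries overlapped at the bottom. Levels of Psmb6 (chromosome 11, 70525367 to 70527858), the caspase-like subunit gene, were 77.7, 77.5 and 78.1 FPKM in the cocktail CD44loCD62L+ libraries, 100, 96.4 and 103 in cocktail CD44+CD62L+, 92.4, 89.5 and 93.8 in cocktail CD44+CD62L-, 147, 151 and 147 in IL-2 and 77.9, 75.2 and 77.2 in naive libraries. The cocktail CD44loCD62L+ and naive libraries overlapped at the bottom. The trypsin-like subunit gene Psmb7 (chromosome 2, 38588036 to 38644087) had 126, 122 and 124 FPKM in the cocktail CD44loCD62L+ libraries, 155, 155 and 156 in cocktail CD44+CD62L+, 167, 169 and 162 in cocktail CD44+CD62L-, 244, 248 and 243 in IL-2 and 92.5, 93.2 and 91.5 in naive libraries. For Psmb7 the naive libraries were lowest without overlap.

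Within each library, the ratio of immunosubunit to constitutive subunit does not depend on the scaling of the library. Psmb8/Psmb5 was 5.24 ± 0.121 in cocktail CD44loCD62L+, 4.77 ± 0.111 in cocktail CD44+CD62L+, 4.72 ± 0.218 in cocktail CD44+CD62L-, 2.43 ± 0.0270 in IL-2 and 2.98 ± 0.0333 in naive cells (SD, n = 3). For Psmb9/Psmb6, the ratios were 4.79 ± 0.0329, 4.70 ± 0.176 and 5.07 ± 0.0790 in those cocktail populations, 1.88 ± 0.0599 in IL-2 and 2.39 ± 0.0484 in naive cells. Both ratios were therefore above naive in the cocktail and below naive in IL-2, although Psmb8 and Psmb9 themselves were higher in IL-2 than in naive cells. Psmb10/Psmb7 was 1.39 ± 0.00601, 1.17 ± 0.0116 and 1.12 ± 0.0391 in the cocktail populations, 0.503 ± 0.0137 in IL-2 and 1.92 ± 0.00786 in naive cells. The ratio of this pair was highest in naive cells, and in IL-2 cells Psmb7 exceeded Psmb10.

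The cocktail CD44+CD62L- cells exceeded the IL-2 cells 1.94-fold in Psmb8/Psmb5 (log2 difference 0.96), 2.70-fold in Psmb9/Psmb6 (1.43) and 2.23-fold in Psmb10/Psmb7 (1.16), with no overlap of libraries. Against naive cells, the IL-2 cells had log2 differences of -0.30, -0.34 and -1.93 for these ratios. Cocktail CD44loCD62L+ cells differed from cocktail CD44+CD62L+ cells by 0.14, 0.03 and 0.24, and only the Psmb9/Psmb6 libraries overlapped. Each non-overlapping pair had a two-sided exact permutation p of 0.1, the smallest that 3 against 3 libraries allow, or 0.111 after Benjamini-Hochberg adjustment over the 21 tests of these ratios, so none could pass 0.05. The share of the 3 immunosubunits in the summed FPKM of the 6 catalytic subunits was 78.1% ± 0.106 in cocktail CD44loCD62L+, 76.8% ± 0.338 in cocktail CD44+CD62L+, 76.6% ± 0.434 in cocktail CD44+CD62L-, 60.4% ± 0.463 in IL-2 and 71.1% ± 0.167 in naive cells (SD, n = 3).

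**Figure D2:**
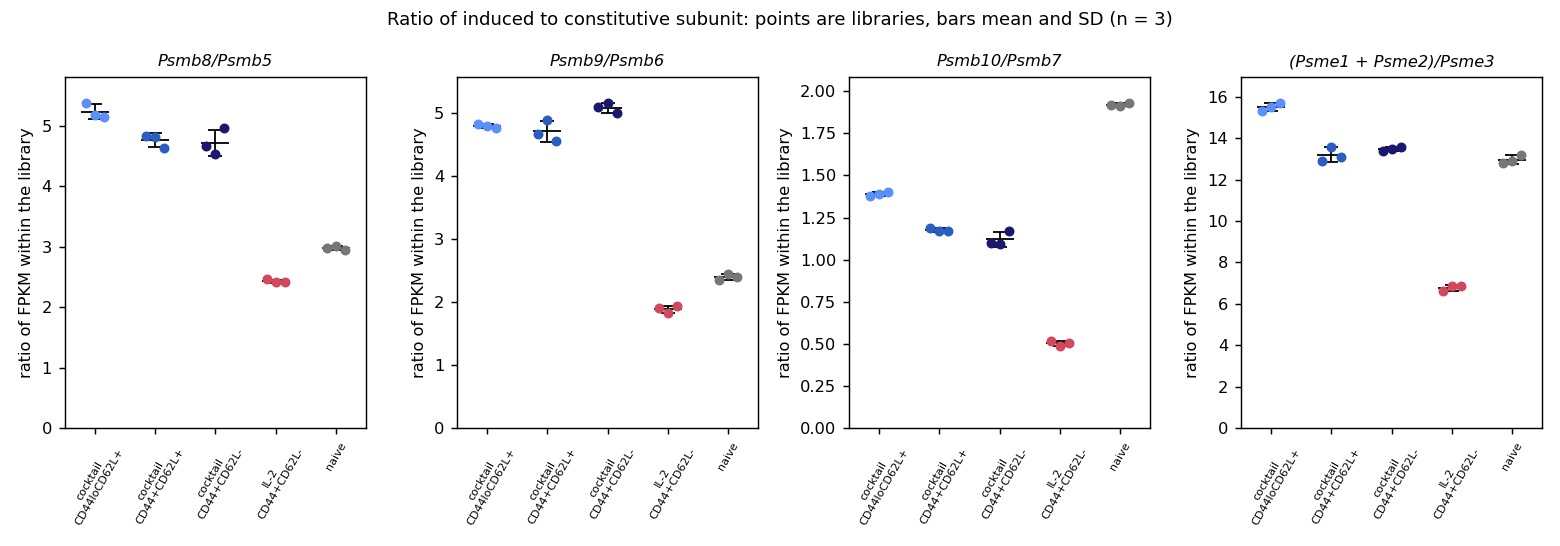
Ratio of FPKM within each library for Psmb8/Psmb5, Psmb9/Psmb6, Psmb10/Psmb7 and the sum of Psme1 and Psme2 over Psme3, by population, with axes from 0. Points are libraries and bars the mean and SD of 3. IL-2 libraries have the lowest ratio in every panel, and naive libraries the highest in the Psmb10/Psmb7 panel alone.

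Among the caps, Psme1 was lowest and Psme3 highest in IL-2 cells, while Psme2 varied little and Psme4 was high in both IL-2 and naive cells. Psme1 (chromosome 14, 55578123 to 55581529) had 554, 555 and 549 FPKM in the cocktail CD44loCD62L+ libraries, 478, 483 and 479 in cocktail CD44+CD62L+, 476, 482 and 481 in cocktail CD44+CD62L-, 351, 353 and 354 in IL-2 and 496, 506 and 503 in naive libraries. IL-2 libraries were lowest and cocktail CD44loCD62L+ libraries highest. Its partner Psme2 (chromosome 14, 55587441 to 55591113) was at 370, 381 and 384 FPKM in the cocktail CD44loCD62L+ libraries, 386, 395 and 389 in cocktail CD44+CD62L+, 410, 413 and 414 in cocktail CD44+CD62L-, 370, 372 and 371 in IL-2 and 415, 408 and 410 in naive libraries. It varied least of all members, and its cocktail CD44loCD62L+ libraries overlapped those of IL-2 at 370 FPKM. Psme3 (chromosome 11, 101316213 to 101323537) was measured at 60.4, 60.3 and 59.4 FPKM in the cocktail CD44loCD62L+ libraries, 66.8, 64.6 and 66.1 in cocktail CD44+CD62L+, 66.3, 66.6 and 65.6 in cocktail CD44+CD62L-, 109, 106 and 106 in IL-2 and 71.0, 70.7 and 69.4 in naive libraries. The IL-2 libraries were highest by far, and the naive libraries also lay above all cocktail libraries. Psme4 (chromosome 11, 30771726 to 30880361) was low, at 14.8, 14.9 and 15.1 FPKM in the cocktail CD44loCD62L+ libraries, 14.3, 14.4 and 14.2 in cocktail CD44+CD62L+, 16.2, 15.8 and 15.7 in cocktail CD44+CD62L-, 21.1, 21.6 and 21.9 in IL-2 and 19.8, 20.1 and 20.1 in naive libraries. The IL-2 and naive libraries were above all cocktail libraries. The sum of Psme1 and Psme2 over Psme3 was 15.5 ± 0.205, 13.2 ± 0.336 and 13.5 ± 0.147 in the cocktail CD44loCD62L+, CD44+CD62L+ and CD44+CD62L- cells, 6.78 ± 0.141 in IL-2 and 13.0 ± 0.168 in naive cells.

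The IL-2 cells, compared with naive cells, had more transcript of nearly the whole constitutive proteasome. A gene is called here when its limma p, Benjamini-Hochberg adjusted over the 11242 genes tested, was under 0.05. Its FPKM + 1 also had to differ at least 1.5-fold, taken from the difference of mean log2(FPKM + 1). Of the 46 members, 34 rose and 0 fell, where 28.3% of all genes tested rose and 25.3% fell. At an unadjusted limma p under 0.05 with no fold minimum, 42 were higher, where 47.0% of all genes were, and 4 lower, where 45% were. The median log2 fold change was 0.92 for the members and 0.02 for all genes. Among the 41 other members 32 rose (median 0.94), and among the 5 immunoproteasome genes 2 rose and 0 fell (median -0.15).

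By role, all 7 alpha ring genes, all 4 structural beta ring genes and all 3 constitutive catalytic genes rose. In the regulatory particle 5 of 6 ATPase genes, 2 of 3 other base genes and 7 of 8 lid genes rose. Psmd13 was at 165, 164 and 167 FPKM in IL-2 libraries, against 54.4, 54.8 and 55.0 FPKM in naive libraries, the largest change of any member (log2 fold change 1.57 ± 0.0170 SE, adjusted p = 7.84e-18). Psma1, an alpha ring gene, rose by 1.46 ± 0.0242 (adjusted p = 6.75e-16) and Psmd1, the large scaffold of the base, by 1.42 on the log2 scale. Their libraries did not overlap, where 46.9% of all genes lay wholly higher and 44.8% wholly lower. Psmb7 rose by 1.40, Psmb5 by 1.02 and Psmb6 by 0.94, against 0.73 for Psmb8 and 0.60 for Psmb9. Psmc4 of the ATPases (0.47), the ubiquitin receptor gene Psmd4 (0.41) and Psmd11 of the lid (0.53) were not called. Of the chaperones, Pomp, which helps to close the core, rose by 1.16 and Psmg3 by 1.07, Psmd9 was the one base chaperone to rise (0.70), and Psmg1, Psmg2 and Psmg4 were not called at 0.23, 0.57 and -0.27. Psmb10 (-0.52), Psme1 (-0.51) and Psmg4 had the lowest log2 fold changes and Psme2 was at -0.15. Of the other caps, Psme3 rose by 0.6 and Psme4 was not called at 0.1. Under quantile normalization the calls of Psmb8 and Psmb9 were lost, at 0.29 and 0.19, while Psmb10 and Psme1 were then called lower, at -0.94 and -1.01. The 10 proliferation markers, all of which rose, summed to 1141 to 1151 FPKM in IL-2 libraries, against 13.2 to 14.6 FPKM in naive libraries; their part in these differences was not tested.

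**Figure D3:**
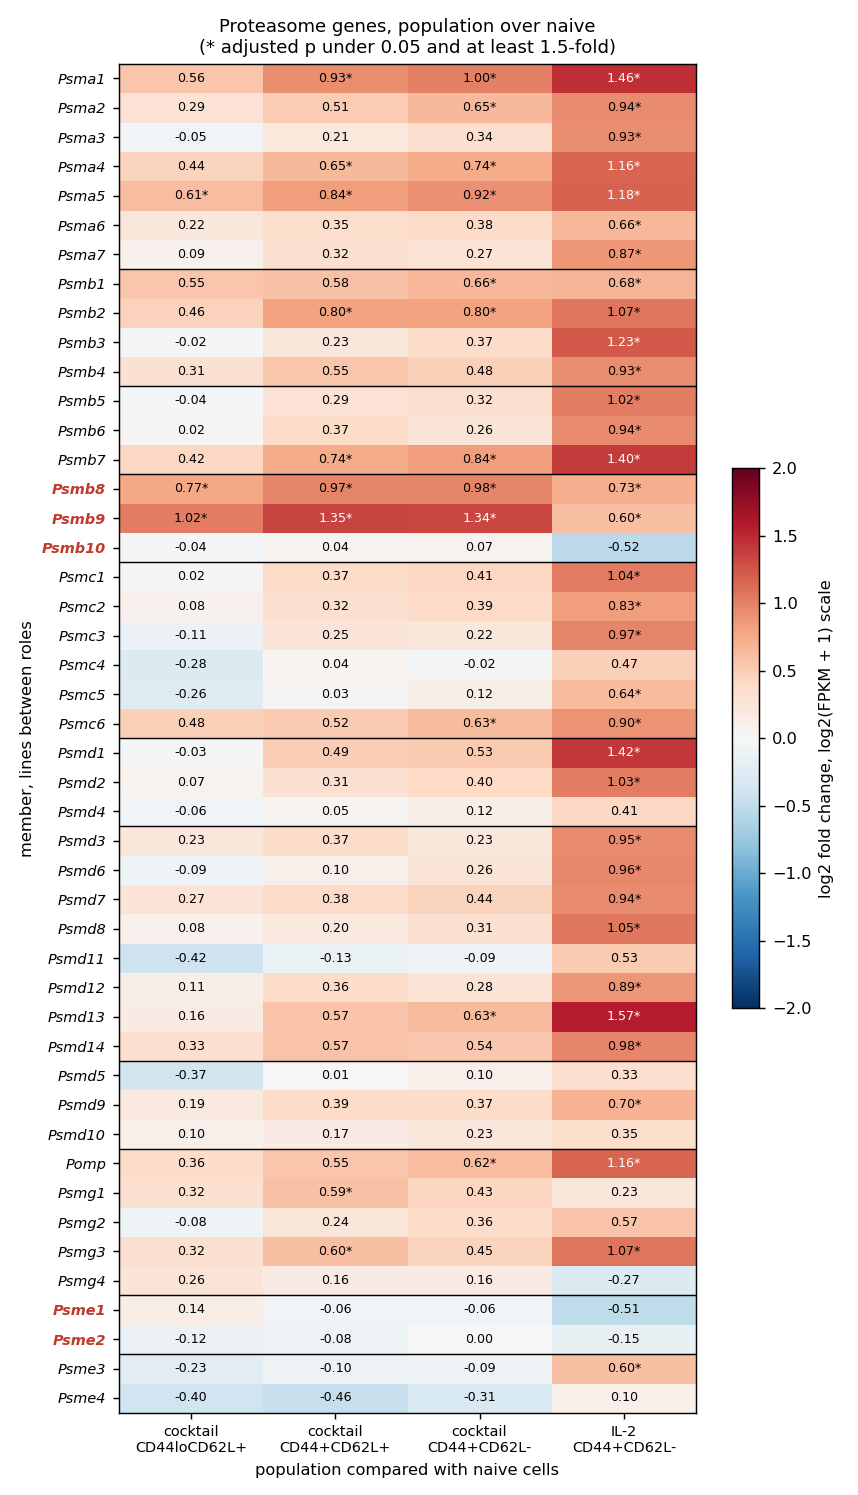
Log2 fold change of each of the 46 members in the 4 cultured populations over naive cells on the log2(FPKM + 1) scale, with the members in rows by role and asterisks for called genes. The 5 immunoproteasome genes are in bold red. The IL-2 column is red for nearly all members, with 34 called, and the cocktail CD44loCD62L+ column is pale, with 3 called.

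The cocktail populations differed less from the same naive libraries. In cocktail CD44loCD62L+ cells 3 members rose and 0 fell, where 19.9% of all genes rose and 16.1% fell, in cocktail CD44+CD62L+ cells 9 rose and 0 fell, where 23.7% rose and 19.8% fell, and in cocktail CD44+CD62L- cells 12 rose and 0 fell, where 23.8% rose and 20% fell. At an unadjusted limma p under 0.05 with no fold minimum, 28 members were higher and 13 lower in the cocktail CD44loCD62L+ cells, where 43.3% and 45.6% of all genes were. The same threshold gave 40 higher and 5 lower in CD44+CD62L+ cells, where 45.3% and 45.6% of all genes were, and 40 higher and 4 lower in CD44+CD62L- cells, where 45.2% and 45.6% were. The shares of members called higher with the fold minimum, unlike that in IL-2, lay near or under the share of all genes. Median log2 fold changes of the 41 other members were 0.10, 0.36 and 0.37, and those of the 5 immunoproteasome genes 0.14, 0.04 and 0.07, which turned to -0.19, -0.20 and -0.18 under quantile normalization. Psmb8 and Psmb9 rose in all these populations. Psmb9 had the highest log2 fold change of all members in each, at 1.02, 1.35 and 1.34 (SE 0.011; adjusted p = 2.12e-17, 7.08e-19 and 8.13e-19), and Psmb8 rose by 0.77, 0.97 and 0.98, the first of which falls to 0.53 and loses its call under quantile normalization. Psma5 (0.61), an alpha ring gene, was the only other member to rise in the cocktail CD44loCD62L+ cells. Its values there were 108, 104 and 108 FPKM, against 69.9, 69.5 and 68.0 FPKM in naive libraries.

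In both cocktail CD44+ populations, Psma1 (0.93 in CD44+CD62L+ and 1.00 in CD44+CD62L- cells), Psma4 (0.65 and 0.74), Psma5 (0.84 and 0.92), Psmb2 (0.80 and 0.80) and Psmb7 (0.74 and 0.84) rose. Psmg1 and Psmg3, genes of core assembly chaperones, were called in CD44+CD62L+ cells at 0.59 and 0.60 and not in CD44+CD62L- cells at 0.43 and 0.45. Psma2, Psmb1, Psmc6, Psmd13 and Pomp were called in CD44+CD62L- cells, at 0.62 to 0.66, and not in CD44+CD62L+ cells, at 0.51 to 0.58. The lowest values against naive were those of Psme4 (-0.40, -0.46 and -0.31 in the cocktail CD44loCD62L+, CD44+CD62L+ and CD44+CD62L- cells) and Psmd11 (-0.42, -0.13 and -0.09), none of them called. Proliferation markers summed to 397 to 400 FPKM in cocktail CD44loCD62L+, 1307 to 1322 in cocktail CD44+CD62L+ and 999 to 1009 in cocktail CD44+CD62L- libraries, all far above naive. All comparisons with naive cells share the same 3 naive libraries.

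The cocktail CD44+CD62L- cells, compared with IL-2 cells of the same surface gate, had less constitutive proteasome transcript and more of the immunoproteasome genes. Among the 46 members 2 rose, where 11.2% of all genes rose, and 17 fell, where 10.8% fell. All 5 immunoproteasome genes had positive log2 fold changes (median 0.44), but only Psmb9 and Psmb10 rose. The libraries of each did not overlap, which was common: 40.6% of all genes lay wholly higher and 43.9% wholly lower. Of the 41 other members 39 had negative log2 fold changes (median -0.50), 17 of which fell, while the median of all genes was -0.01. Psmb9 rose by 0.74 ± 0.0110 (SE, adjusted p = 1.58e-15) and Psmb10 by 0.59 ± 0.0150 (adjusted p = 3.58e-13). Psmb10 lay just over the 1.5-fold minimum and was no longer called without IL-2 replicate 2 or without cocktail CD44+CD62L- replicate 3, which left 1 member risen. Psme1 was at 0.44 (called at 0.64 under quantile normalization), Psmb8 at 0.25 and Psme2 at 0.15.

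Psmd13 fell most, to 84.3, 86.4 and 85.8 FPKM in cocktail CD44+CD62L- libraries, against 165, 164 and 167 FPKM in IL-2 libraries (log2 fold change -0.94 ± 0.0170, adjusted p = 8.98e-15). Psmd1 (-0.89) and Psmb3, a structural beta subunit gene (-0.86), followed. The lid had the most members that fell, 6 of 8, with Psmd8 at -0.74 and Psmd3 at -0.72 and with Psmd7 (-0.50) and Psmd14 (-0.44), the deubiquitinase gene of the lid, not called. Psmb5 fell by 0.70 and Psmb6 by 0.68, whereas Psmb7 at -0.56 was not called. Also lower were 2 of 7 alpha ring genes, 1 of 4 structural beta genes, 2 of 6 ATPase genes, 2 of 3 other base genes and, of the rest, Psmg3 (-0.62) and Psme3 (-0.68). No base chaperone gene was called. Psmg1 (0.20) and Psmg4 (0.43), not called, were the 2 other members with positive values, and Psmb1 (-0.02) turned positive under quantile normalization. That normalization left 3 members called lower, with Psmb5 and Psmb6 at -0.49 and Psme3 at -0.52 no longer called.

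**Figure D4:**
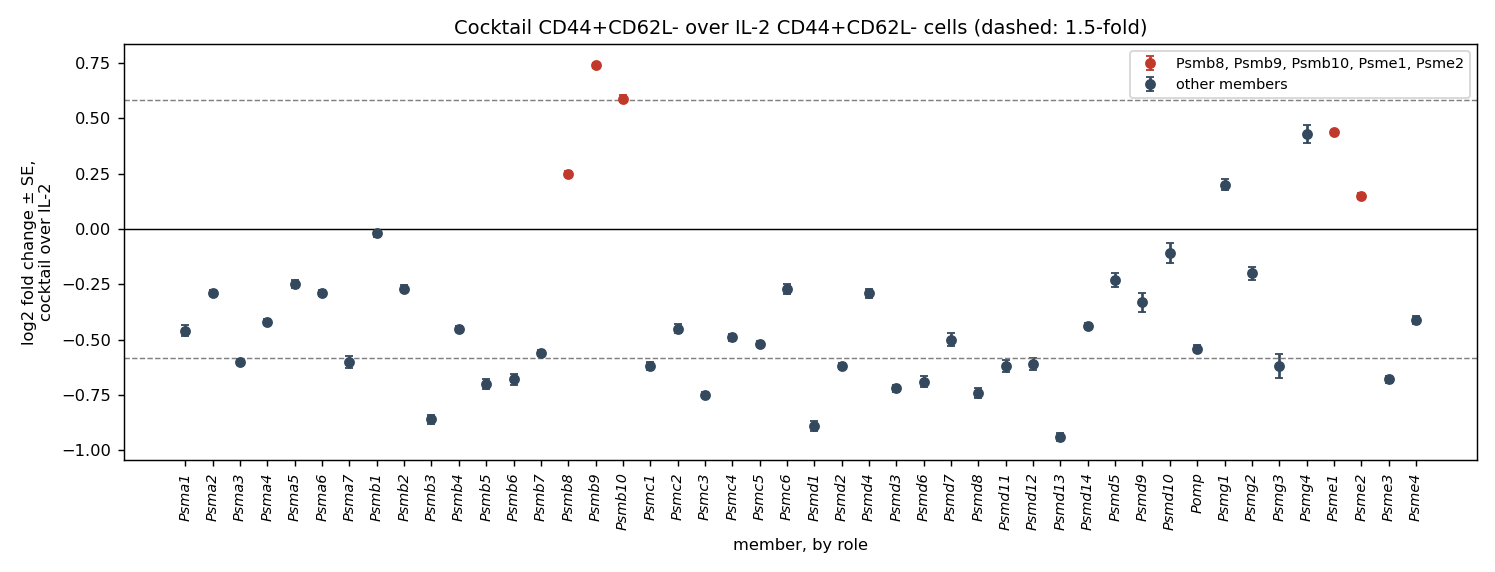
Log2 fold change ± SE of each of the 46 members in cocktail CD44+CD62L- over IL-2 CD44+CD62L- cells, in order of role, with 1.5-fold as dashed lines. The 5 immunoproteasome genes (red) all lie above 0, from 0.15 for Psme2 to 0.74 for Psmb9, while 39 of the 41 other members lie below.

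Cultures had been started with bone marrow dendritic cells, and markers of dendritic cells and macrophages also differed between cocktail CD44+CD62L- and IL-2 cells. Of 17 listed, 14 were tested, of which 9 rose and 2 fell in the cocktail CD44+CD62L- cells, where 11.2% of all genes rose and 10.8% fell. Their summed level over the 16 in the table was 296 to 304 FPKM in cocktail CD44+CD62L- libraries, against 176 to 180 FPKM in IL-2 libraries. It was 273 to 284 FPKM in cocktail CD44loCD62L+, 269 to 282 FPKM in cocktail CD44+CD62L+ and 333 to 336 FPKM in naive libraries. The cysteine protease inhibitor gene Cst3 (146 in cocktail CD44+CD62L- and 129 FPKM in IL-2 cells) and the cathepsin gene Ctss (91.1 and 24.5 FPKM) made up most of it. The MHC class II gene H2-Ab1 was at 13.7 and 0.622 FPKM, the lysozyme gene Lyz2 at 21.3 and 0.427 FPKM, and Csf1r, the receptor for macrophage colony-stimulating factor, at 0.554 and 0.00619 FPKM. The 2 that fell were Itgax, the dendritic cell integrin gene, at 0.653 FPKM in cocktail CD44+CD62L- and 1.56 FPKM in IL-2 cells (-0.63), and the Fc receptor chain gene Fcer1g, at 3.35 and 15.9 FPKM (-1.97). No marker was at 0 in every library. In IL-2 compared with naive cells, 3 of the 14 rose and 9 fell, where 28.3% of all genes rose and 25.3% fell. The part of these markers in the immunoproteasome result was not tested.

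Within the cocktail, few genes of any kind were called across the CD62L gate, and the members were no exception. In cocktail CD44+CD62L+ cells, compared with cocktail CD44+CD62L- cells, 0 members rose and 0 fell, where 0.294% of all genes rose and 0.338% fell. Log2 fold changes ran from -0.17 for Psmd6 to 0.16 for Psmg1, and with the adjusted limma p alone 7 members were higher and 21 lower, where 24.1% and 24.3% of all genes were. The unadjusted p gave 8 higher and 23 lower, where 27.2% and 27.3% of all genes were. In cocktail CD44loCD62L+ cells, compared with cocktail CD44+CD62L+ cells, 0 members rose and 0 fell, where 2.55% of all genes rose and 6.11% fell. There 43 of the 46 values were negative, with a median of -0.24 against 0.00 for all genes, and with the adjusted limma p alone 2 members were higher and 41 lower, where 36.5% and 36.9% of all genes were. The unadjusted p gave 3 higher and 42 lower, where 37.4% and 37.8% of all genes were. Psmd1 was lowest at -0.52, followed by Psmd13 at -0.41, and Psme1 (0.20), Psmg4 (0.09) and Psme4 (0.06) were the 3 with positive values. Psmb9 was at -0.33, Psmb8 at -0.19 and Psmb10 at -0.08. All 10 proliferation markers fell in this comparison, and their part in it was not tested.

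Most genes of interferon signalling, which induces the immunosubunits, were higher in the cocktail than in IL-2 cells. Of 11 tested, 8 rose and 1 fell in cocktail CD44+CD62L- compared with IL-2 cells (median 0.75), where 11.2% of all genes rose and 10.8% fell. Irf1, a transcription factor known to drive Psmb9 and Tap1, was at 125 ± 2.51 FPKM in cocktail CD44+CD62L- and 47.3 ± 0.150 FPKM in IL-2 cells (SD, n = 3; log2 fold change 1.39 ± 0.0127, adjusted p = 1.22e-17). Nlrc5, the transactivator of MHC class I genes, was at 98.7 FPKM in cocktail CD44+CD62L- and 48.7 FPKM in IL-2 cells (1.00), and the receptor chain gene Ifngr2 at 4.69 and 0.250 FPKM (2.19). Irf8, a factor shared with myeloid cells, fell by 1.01. Compared with naive cells, 8 of the 11 fell and 2 rose in IL-2 cells, where 25.3% of all genes fell and 28.3% rose. Ifngr2 was at 0.250 FPKM in IL-2 and 26.0 FPKM in naive cells, and Irf1 at 47.3 FPKM in IL-2 and 241 FPKM in naive cells. Ifngr1 (1.06) and Irf8 (3.19) were the 2 that rose. The cocktail cells were mixed against naive cells, with 3 that rose and 3 that fell in cocktail CD44loCD62L+, 3 and 4 in cocktail CD44+CD62L+, and 4 and 4 in cocktail CD44+CD62L- cells. Of all genes, 19.9%, 23.7% and 23.8% rose and 16.1%, 19.8% and 20% fell in these populations. Irf1 fell in each, while Psmb8 and Psmb9 rose there. The part of the interferon signalling genes in the immunosubunit levels was not tested.

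Genes that load peptides onto MHC class I were compared next, as the immunoproteasome supplies those peptides. Of 11, 5 rose and 1 fell in cocktail CD44+CD62L- compared with IL-2 cells, where 11.2% of all genes rose and 10.8% fell. H2-K1, which encodes the restricting molecule of OT-I cells, was at 2203 ± 9.45 FPKM in cocktail CD44+CD62L- and 979 ± 5.10 FPKM in IL-2 cells (1.17), and the light chain gene B2m at 5774 and 3134 FPKM (0.88). Tap1, which shares its upstream region with Psmb9, was at 273 ± 1.39 FPKM in cocktail CD44+CD62L- and 157 ± 1.80 FPKM in IL-2 cells (0.79, adjusted p = 1.02e-16), while Tap2 at 0.49 was not called. Calr, a chaperone gene of the endoplasmic reticulum, fell by 0.60. Against naive cells, Pdia3, another chaperone gene there, and Tap1 rose in all cocktail populations, Tap1 by 0.93, 1.01 and 0.90 in CD44loCD62L+, CD44+CD62L+ and CD44+CD62L- cells. In IL-2 cells compared with naive cells 3 genes rose and 3 fell, near the 28.3% of all genes that rose and the 25.3% that fell. H2-K1 was at -1.14 and Pdia3 at 1.21.

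**Figure D5:**
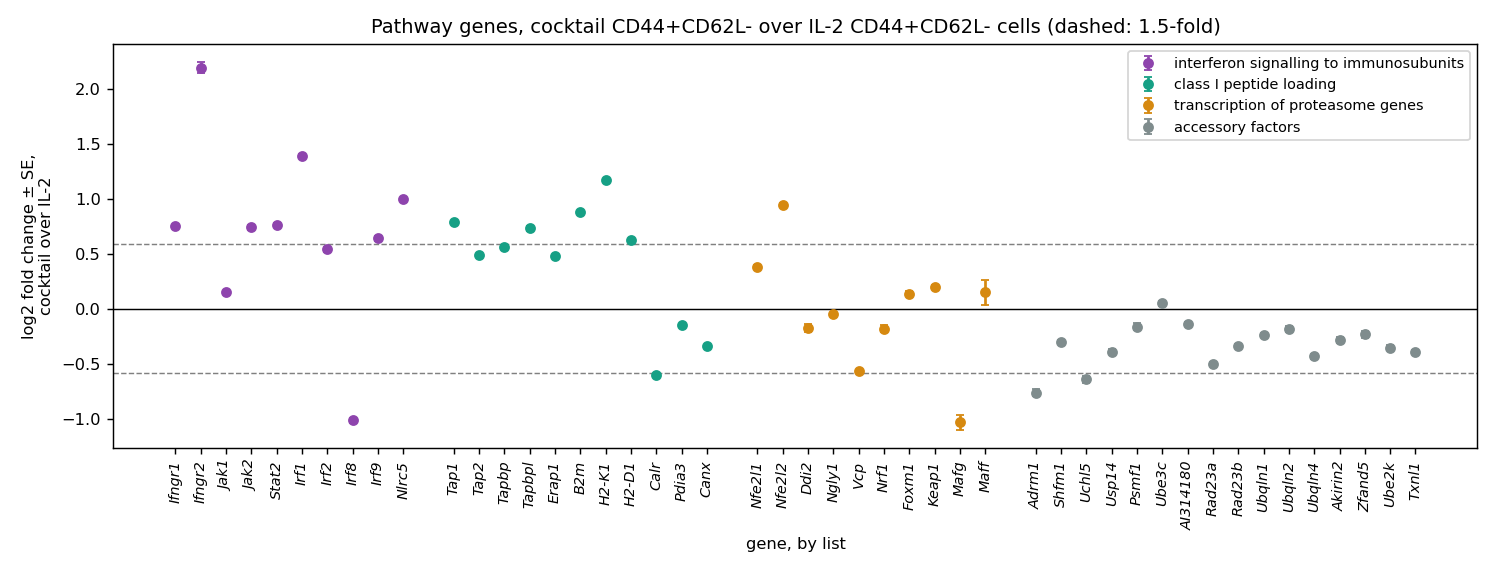
Log2 fold change ± SE of the tested genes of 4 pathway lists, all but 1 of interferon signalling, in cocktail CD44+CD62L- over IL-2 CD44+CD62L- cells, with 1.5-fold as dashed lines. Most interferon signalling genes and class I genes lie above 0, with Ifngr2 at 2.19 and H2-K1 at 1.17, while most accessory factors lie below.

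Regulators of proteasome gene transcription moved in both directions. Of 10 tested, 1 rose and 1 fell in cocktail CD44+CD62L- compared with IL-2 cells, near the 11.2% of all genes that rose and the 10.8% that fell. Nfe2l2 rose to 20.1 ± 0.364 FPKM in cocktail CD44+CD62L- cells, against 9.96 ± 0.158 FPKM in IL-2 cells (0.94), and Mafg, a small partner of such factors, fell by 1.03. Nfe2l1, which raises proteasome genes when the proteasome is inhibited, was at 29.1 and 22.1 FPKM (0.38, not called). In IL-2 cells compared with naive cells 4 rose and 1 fell, where 28.3% of all genes rose and 25.3% fell. Those that rose were Foxm1, a cell cycle factor (3.58), Mafg (1.78), Ngly1 (0.82), the glycanase that activates Nfe2l1, and Vcp (0.79). Vcp, the segregase that feeds the proteasome, stands on the list of accessory factors too. Nfe2l2 fell by 1.81. Against naive cells, 3 rose in cocktail CD44loCD62L+ and 4 in each of the other cocktail populations, and 1 fell in each, Nfe2l2. Of all genes, 19.9% to 23.8% rose and 16.1% to 20% fell in these populations.

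The list of accessory factors also held proteasome subunits and receptors with symbols outside those used for the members. Its genes belong to the proteasome, bind to it, carry substrates to it or trim ubiquitin. Of 17 tested, 6 rose and 0 fell in IL-2 compared with naive cells, where 28.3% of all genes rose and 25.3% fell. In cocktail CD44+CD62L- compared with IL-2 cells 2 fell, near the 10.8% of all genes that fell. Those 2 were the ubiquitin receptor gene Adrm1 (-0.76) and Uchl5, a deubiquitinase gene (-0.64). Those that rose in IL-2 over naive cells were Uchl5 (1.30), Txnl1 (1.25), the deubiquitinase gene Usp14 (1.06), Shfm1 (1.03), the shuttle factor gene Rad23b (0.89) and Vcp. Against naive cells 4 rose and 3 fell in cocktail CD44+CD62L- cells, 3 rose and 1 fell in cocktail CD44+CD62L+ cells, and 0 rose and 4 fell in cocktail CD44loCD62L+ cells. Of all genes, 23.8%, 23.7% and 19.9% rose and 20%, 19.8% and 16.1% fell there. The ubiquilin genes Ubqln1, Ubqln2 and Ubqln4, which carry substrates to the proteasome, fell in cocktail CD44loCD62L+ cells, by 0.88, 0.62 and 0.62 against naive cells, where Akirin2, an importer of proteasomes to the nucleus, fell by 0.72, and in cocktail CD44+CD62L- cells, by 0.76, 0.69 and 0.70. Across the CD44 gate within the cocktail, Uchl5 fell by 0.64 and Foxm1 by 1.60 in CD44loCD62L+ compared with CD44+CD62L+ cells.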

How the data were processed

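RNA was extracted with the PicoPure kit from sorted cells and sequenced as Illumina libraries, per the labels' protocols. The submitters' processing notes name TopHat2 2.0.9, Cuffdiff 2.1.1 and the build mm10. Annotation, settings and strand: not given in the sources used here. The FPKM values are the normalized values the authors deposited, with 1 column per library. Whole reads could not be recovered, since only 17.7% of 25798 ratios of low values were whole within 0.05 (10% by chance), and depth is unknown.

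Values were taken to log2(FPKM + 1), and 11242 genes, those whose mean reached 1 FPKM in some population, were tested. limma 3.58.1 in R 4.3.3 (lmFit, eBayes with trend) modelled the 15 libraries by population alone, for 7 comparisons. Fold changes on this scale understate low genes. Genes were called at an adjusted p under 0.05 and at least 1.5-fold. The steps were tested on simulated data with known fold changes. Ratios were tested by a two-sided exact permutation test. Named were the 5 immunoproteasome genes and their counterparts, the 3 highest and 3 lowest members of each comparison, the highest and lowest by role, and from each pathway list the called genes, up to the 2 highest and 2 lowest. Other genes named were chosen after their values were seen. The members and lists were chosen with earlier results of these data known. Of the interferon signalling list, 1 gene is counted but not reported here by name. Gene spans are from GENCODE M21 (GRCm38), upstream sequences from RefSeq (GRCm38.p6). Alternatives were other pseudocounts, filters, scalings and fold minimums, no trend, fits to only the 6 libraries of a comparison, a replicate block and leaving out each library. Python 3.11.15 with matplotlib 3.10.9 drew the figures.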

Additional observations from a re-analysis of the deposited data

How the results depend on the processing

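Median-ratio scaling, a pseudocount of 0.1, other filters, no variance trend and the fit to the 6 libraries compared kept every count of called members within 1.5 times. Quantile normalization, which moved the median of all genes by up to -0.11 (log2), gave 2 lower instead of 0 in IL-2 over naive cells, 7 higher instead of 12 in cocktail CD44+CD62L- over naive cells, and 3 lower instead of 17 in cocktail CD44+CD62L- over IL-2 cells. In that last comparison a pseudocount of 5 left 1 higher instead of 2. The cause was not tested. With a fold minimum of 2, by construction fewer members were called higher: 1, 1 and 1 in the cocktail CD44loCD62L+, CD44+CD62L+ and CD44+CD62L- cells and 14 in IL-2 cells over naive cells, and 0 higher and 0 lower in cocktail CD44+CD62L- over IL-2 cells. Without a fold minimum the counts higher and lower were 28 and 13, 39 and 5, and 40 and 4 in the same cocktail populations and 4 lower in IL-2 cells over naive cells, 7 and 38 in cocktail CD44+CD62L- over IL-2 cells, 7 and 21 in cocktail CD44+CD62L+ over CD44+CD62L- cells, and 2 and 41 in cocktail CD44loCD62L+ over CD44+CD62L+ cells. Without the minimum 40.6% to 46.9% of all genes were called in each direction in the comparisons with naive or IL-2 cells.

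Leaving out each library in turn gave 1 to 2 higher (1 without IL-2 replicate 2 or cocktail CD44+CD62L- replicate 3) and 15 to 17 lower members in cocktail CD44+CD62L- over IL-2 cells, 33 to 35 higher in IL-2 over naive cells, and 3 to 4, 8 to 10 and 12 to 12 higher in the cocktail CD44loCD62L+, CD44+CD62L+ and CD44+CD62L- cells over naive cells. With each library left out in turn, the ratio differences moved little, which was near fixed in advance because the other libraries were kept. For Psmb8/Psmb5 in cocktail CD44+CD62L- over IL-2 cells, the log2 difference ran from 0.92 to 0.99. Ratios under quantile normalization are not given here. Members named as highest or lowest, in a comparison or by role, were also followed under the alternatives other than those to the fold minimum. Of 4410 such values, 45 lost their call, 28 of them under quantile normalization, 8 gained one and 0 reversed. Pathway and marker genes were not part of this count.

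The replicate number as a block gave 34 members higher in IL-2 over naive cells, as without it, and moved no count by over 1.5 times. Of 21 same-numbered pairs of libraries, 2 had deviations that correlated above 0.1 (range -0.238 to 0.184), and 2 of 15 libraries correlated best with their own number. No pairing by number was thus seen, but so few technical replicates per population cannot exclude one. With technical replicates and unknown depth, the small SEs say nothing of variation among mice or cultures, and values near the 1.5-fold minimum, such as that of Psmb10, can fall on either side.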
